A study of Mus musculus with 12 samples.

Results

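Class II molecules of the major histocompatibility complex show peptides to CD4 T cells, and the genes that build and load them were followed here in 12 mouse tumours. The set was fixed by name as 10 genes: the chains H2-Aa, H2-Ab1 and H2-Eb1, the loading genes H2-DMa, H2-DMb1, H2-DMb2, Cd74, Ctss and Ifi30, and the regulator Ciita. Of these, 9 of the 35999 rows of the count table carried values, all 9 were among the 17940 genes with enough counts to be tested, and Ifi30, a thiol reductase of the endosome, was not analysed here. The tumours were subcutaneous AB1-HA, a mouse mesothelioma line engineered to express influenza haemagglutinin, grown in male BALB/c mice aged 8 to 10 weeks. The tumours of the control group, 6 in number, were from mice given PBS, and 6 were from mice given 100 µg of an antibody against CD4. Doses were on days -3, 0 and 7 counted from inoculation, and tumours were removed on day 9 for RNA sequencing. The labels name no sort or dissection, so each library mixes tumour cells, connective tissue and leukocytes. The comparison asked how tumours of mice given the CD4 antibody differ from those of mice given PBS.

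A class II molecule is an alpha and a beta chain that pair in the endoplasmic reticulum with the invariant chain, encoded by Cd74, which blocks the groove and steers the complex to endosomes. There cathepsin S, encoded by Ctss, cuts the invariant chain down to a short peptide called CLIP, and the H2-DM heterodimer exchanges CLIP for antigen peptide. Dendritic cells and B cells express class II constitutively, macrophages and many other cells do so after interferon gamma, and in each case transcription depends on CIITA, a coactivator without DNA binding of its own. CIITA sits on the RFX, CREB and NF-Y factors that occupy the X and Y boxes of class II promoters. BALB/c mice carry the d haplotype of this region, whereas the GRCm38 reference is C57BL/6J, which carries the b haplotype. The chains are polymorphic, so reads of the BALB/c alleles may be assigned less fully than reads of other genes, in both groups alike, and the size of this effect was not tested.

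Promoter sequence is shown first because class II promoters are known for these boxes. Whether the boxes bear on the levels in these tumours was not tested. RefSeq promoters on GRCm38.p6, 250 bases before to 50 after each start, were found for 7 of the 10 named genes and for H2-Oa, H2-Ob and H2-Eb2. H2-Ab1, Cd74 and Ciita were not among the 7. Each was searched on both strands for the X box core (AG, any 2 bases, AC, any 2 bases, ATG) and for CCAAT, the NF-Y motif of the Y box, read as ATTGG on the other strand. The core occurred in 3.09% and CCAAT in 37.4% of 32851 promoters of that length, and a core followed by ATTGG within 40 bases in 0.131% (43 promoters). Of the 7 members with a promoter, H2-Eb1 and H2-DMb1 held that pair, as did H2-Ob and H2-Eb2, with 20 to 23 bases between the motifs. H2-DMa held no core, Ctss and Ifi30 held neither motif, and H2-Oa held both but not as that pair. Only exact matches were counted, so a promoter without a match may still hold an X box. H2-Aa held ATTGG 48 bases before its start and H2-DMb2 90 bases before its start, both without a core match. In the stretches that follow, 5′ to 3′ on the coding strand, capitals mark the matched core and ATTGG.
H2-Eb1, chr17:34305765-34305822, plus strand: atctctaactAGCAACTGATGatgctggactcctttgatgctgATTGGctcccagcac
H2-Aa, chr17:34287857-34287918, minus strand: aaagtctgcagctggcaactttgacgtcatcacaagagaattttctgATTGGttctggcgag
H2-DMb2, chr17:34145115-34145173, plus strand: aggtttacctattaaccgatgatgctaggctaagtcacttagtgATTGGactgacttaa
H2-Ob, chr17:34238807-34238862, plus strand: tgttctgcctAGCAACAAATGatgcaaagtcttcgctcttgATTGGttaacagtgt
H2-Eb2, chr17:34325532-34325589, plus strand: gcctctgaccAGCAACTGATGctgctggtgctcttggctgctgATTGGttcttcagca
The paralogs H2-DMb1 and H2-DMb2 differed inside the core. H2-DMb1 reads AGTAACTGATG, and the 11 bases of H2-DMb2 at the same distance from ATTGG read attaaccgatg, which are G2T and T7C counted from 1 at the 5′ end of the core with H2-DMb1 as the reference. These letters are from C57BL/6J and were not read in the BALB/c tumours. Of these substitutions, only G2T falls on a fixed base of the searched core, as position 7 may be any base.

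**Figure D1:**
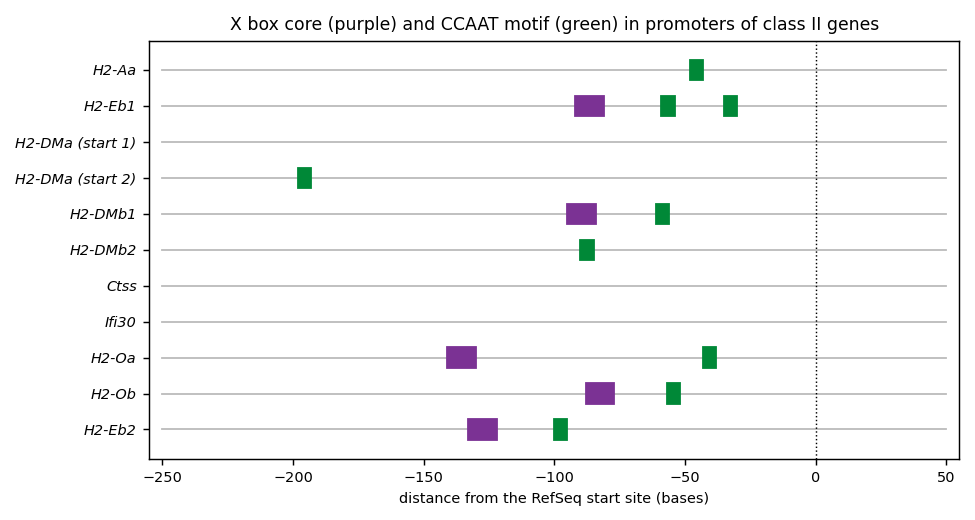
Positions of the X box core (purple) and of CCAAT on either strand (green) from 250 bases before to 50 after the RefSeq start (dotted line) of each class II gene with a promoter sequence. H2-Eb1, H2-DMb1, H2-Ob and H2-Eb2 hold a core followed by ATTGG within 40 bases, H2-DMa has 2 starts, and Ctss and Ifi30 hold neither motif.

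Total counts were 30.7 M to 41.9 M per PBS tumour and 34.5 M to 62.1 M per anti-CD4 tumour. Cd4, the antigen of the antibody, was at 4.35 to 9.93 CPM (counts scaled to library size by TMM) in the PBS group against 0.618 to 2.13 CPM in anti-CD4 tumours. It fell by 2.26 on the log2 scale (SE 0.28, edgeR adjusted p = 0.00298), and the groups did not overlap. Across the 17940 tested genes, 2.33% were called lower and 2.95% higher at an adjusted p under 0.05 (418 and 529 genes, but 325 and 179 with upper quartile scaling), and in 1.19% every anti-CD4 tumour lay below every PBS tumour. Anti-CD4 tumours 3 and 4 stood apart from the other 4 of their group in the class II genes, and also in Ifng, Itgax and Ptprc. The edgeR count of called members is therefore given with and without them.

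All 9 measured members were lower in the anti-CD4 tumours, with mean levels at 42.4% to 60.1% of the PBS means, and 2 of the 9, the chains H2-Eb1 and H2-Aa, passed the test (background 2.33%). The median log2 fold change of the 9 was -1.03, against -0.00033 over all tested genes. All 9 had an unadjusted p under 0.05 with a lower value, as did 14.7% of all genes. In 0 of the 9 did every anti-CD4 tumour lie below every PBS tumour (background 1.19%). These bulk libraries cannot tell fewer class II cells from less class II RNA per cell.

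H2-Eb1 encodes the beta chain of I-E and lies on chromosome 17 from 34305867 to 34316674 on the plus strand. Its lowest, median and highest levels were 99.8, 163 and 316 CPM in PBS tumours and 51.2, 66.1 and 111 CPM in anti-CD4 tumours. PBS 2 was the highest, and only anti-CD4 3 and 4 reached the range of the PBS group, above PBS 5 alone. H2-Eb1 fell by 1.24 on the log2 scale (SE 0.31, edgeR adjusted p = 0.0461).

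H2-Aa, the alpha chain of I-A, lies on chromosome 17 from 34282744 to 34287823 on the minus strand. It was at 143, 224 and 416 CPM (lowest, median and highest) in PBS and at 70.2, 99.8 and 158 CPM in anti-CD4 tumours. The order of the tumours was nearly that of H2-Eb1, with PBS 2, 6 and 1 on top, and again anti-CD4 3 and 4 passed PBS 5 and no other PBS tumour. H2-Aa fell by 1.17 (SE 0.30, edgeR adjusted p = 0.0464).

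H2-Ab1, the beta chain that pairs with H2-Aa, lies on chromosome 17 from 34257689 to 34269419. Its levels were 110, 181 and 326 CPM with PBS against 56.03, 75.7 and 137 CPM in anti-CD4 tumours, lowest, median and highest. Its log2 fold change of -1.13 (SE 0.32) did not pass in edgeR (adjusted p = 0.0624). The I-E alpha chain gene, H2-Ea-ps, is labelled a polymorphic pseudogene because C57BL/6 mice do not express it, and BALB/c mice do. Its mean was 121 ± 50.9 CPM with PBS against 56.6 ± 20.1 CPM after anti-CD4 (SD, n = 6 each), a log2 difference of -1.10 (SE 0.31) that did not pass (edgeR adjusted p = 0.0589). All 4 chain genes of I-A and I-E had log2 fold changes between -1.24 and -1.10, 2 of them past the threshold.

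H2-Aa over H2-Ab1 counts had a ratio of 1.27 ± 0.12 in PBS and 1.24 ± 0.07 in anti-CD4 tumours, and H2-Eb1 over H2-Ab1 a ratio of 0.903 ± 0.047 and 0.856 ± 0.073 (SD, n = 6 each). In 10 such ratios compared, the exact two-sided permutation p was 0.647 and 0.193 for these (0.770 and 0.321 adjusted over the 10). H2-Eb1 over H2-Ea-ps, the I-E beta to alpha ratio, was 1.49 ± 0.15 and 1.35 ± 0.10 (exact permutation p = 0.0758, 0.189 adjusted). None of these 3 passed. After removal of the group means, the log2 levels of H2-Aa, H2-Ab1, H2-Eb1 and Cd74 correlated across the 12 tumours at Pearson r of 0.977 to 0.988 over 6 pairs. These tumours share 1 count table, and no p is attached.

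Cd74, on chromosome 18 from 60803848 to 60812652, was the most abundant member, at 290, 508 and 1026 CPM with PBS against 144, 198 and 360 CPM in anti-CD4 tumours (lowest, median and highest). PBS 2 had the highest value and PBS 5 the lowest of its group, and anti-CD4 3 and 4 lay at 360 and 349 CPM. The log2 fold change of -1.23 (SE 0.34) was close to that of the chains and did not pass (edgeR adjusted p = 0.0584). Per kilobase of annotated exon, the order of the PBS means was Cd74 (331 ± 158), Ctss (147 ± 58.1), H2-Eb1 (92.5 ± 40.3), H2-Ab1 (77.4 ± 31.9) and H2-Aa (65.7 ± 26.0 CPM per kilobase, SD, n = 6). H2-DMa (11.1 ± 3.78), H2-DMb2 (7.26 ± 1.92), H2-DMb1 (5.99 ± 2.04) and Ciita (4.24 ± 1.11) followed, also in CPM per kilobase. The SD ranges of neighbours in this order overlapped, except between H2-Aa and H2-DMa. Exon lengths join all annotated transcripts of a gene, so a gene with long minor transcripts gets a lower value per kilobase.

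The H2-DM genes, which encode the peptide exchanger, were lower too, and none of the 3 passed. H2-DMa, the alpha chain, on chromosome 17 from 34119541 to 34139101, was at 23.5, 37.8 and 54.3 CPM with PBS against 13.5, 19.3 and 37.9 CPM in anti-CD4 tumours. It had the log2 fold change nearest to 0 of all 9 members, -0.74 (SE 0.30, edgeR adjusted p = 0.141). In H2-DMa, anti-CD4 3 and 4 lay above PBS 3, 4 and 5, a wider overlap than in the chains. H2-DMb1 and H2-DMb2, neighbouring copies of the beta chain gene on chromosome 17 from 34153072 to 34160230 and from 34143307 to 34151555, had log2 fold changes of -1.03 (SE 0.34) and -0.83 (SE 0.27), with edgeR adjusted p of 0.0853 and 0.0804. In GENCODE M21, 31.4% and 36.6% of their 31-base words also occurred in another gene's transcript, mainly each other's. The split of reads between them is therefore uncertain, and their summed counts gave -0.91 (SE 0.30, edgeR adjusted p = 0.0886). For the other members this share was at most 2.77%, except for H2-DMa at 9.23%, whose locus overlaps Brd2 on the opposite strand, with a strand setting not given in the sources used here. Brd2 itself had a log2 fold change of 0.005 (edgeR adjusted p = 0.963).

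H2-Aa over H2-DMa, a ratio of a chain to its exchanger, was 6.52 ± 0.96 in PBS and 4.94 ± 0.41 in anti-CD4 tumours (SD, n = 6 each; exact permutation p = 0.00649, 0.0649 adjusted over the 10 ratios). The ratio ran from 4.998 to 7.65 in PBS and from 4.17 to 5.36 in anti-CD4 tumours, so the groups overlapped slightly. It does not pass after adjustment. Cd74 over Ctss was 2.72 ± 0.44 and 1.97 ± 0.52 (exact permutation p = 0.0281, 0.123 adjusted), which does not pass either.

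Ciita, the class II coactivator, on chromosome 16 from 10480059 to 10528418, was at 28.9, 37.1 and 56.9 CPM with PBS against 10.7, 17.2 and 34.2 CPM in anti-CD4 tumours. Only anti-CD4 3 reached the PBS range, and anti-CD4 4, at 28.6 CPM, lay just below PBS 5. The log2 fold change was -1.01 (SE 0.30, edgeR adjusted p = 0.0693). Dexi overlaps Ciita over 25888 bases on the opposite strand, and it differed by -0.08 on the log2 scale (adjusted p = 0.553 in edgeR). H2-Ab1 over Ciita was 4.79 ± 1.07 in PBS and 4.68 ± 0.61 in anti-CD4 tumours (exact permutation p = 0.916), with ranges of 3.82 to 6.63 and 3.87 to 5.28.

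Ctss, which encodes cathepsin S, lies on chromosome 3 from 95526786 to 95556403 and had the narrowest range in anti-CD4 tumours. Its levels were 128, 178 and 337 CPM with PBS against 102, 111 and 145 CPM in anti-CD4 tumours, with a log2 difference of -0.77 (SE 0.22) and an adjusted p = 0.0638 in edgeR. The highest anti-CD4 value was 1.43 times the lowest for Ctss, against 2.25 times for H2-Aa and 3.204 times for Ciita. Anti-CD4 6 was the lowest or next to lowest tumour for the other 8 members, and for Ctss it lay above anti-CD4 1, 2 and 5.

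**Figure D2:**
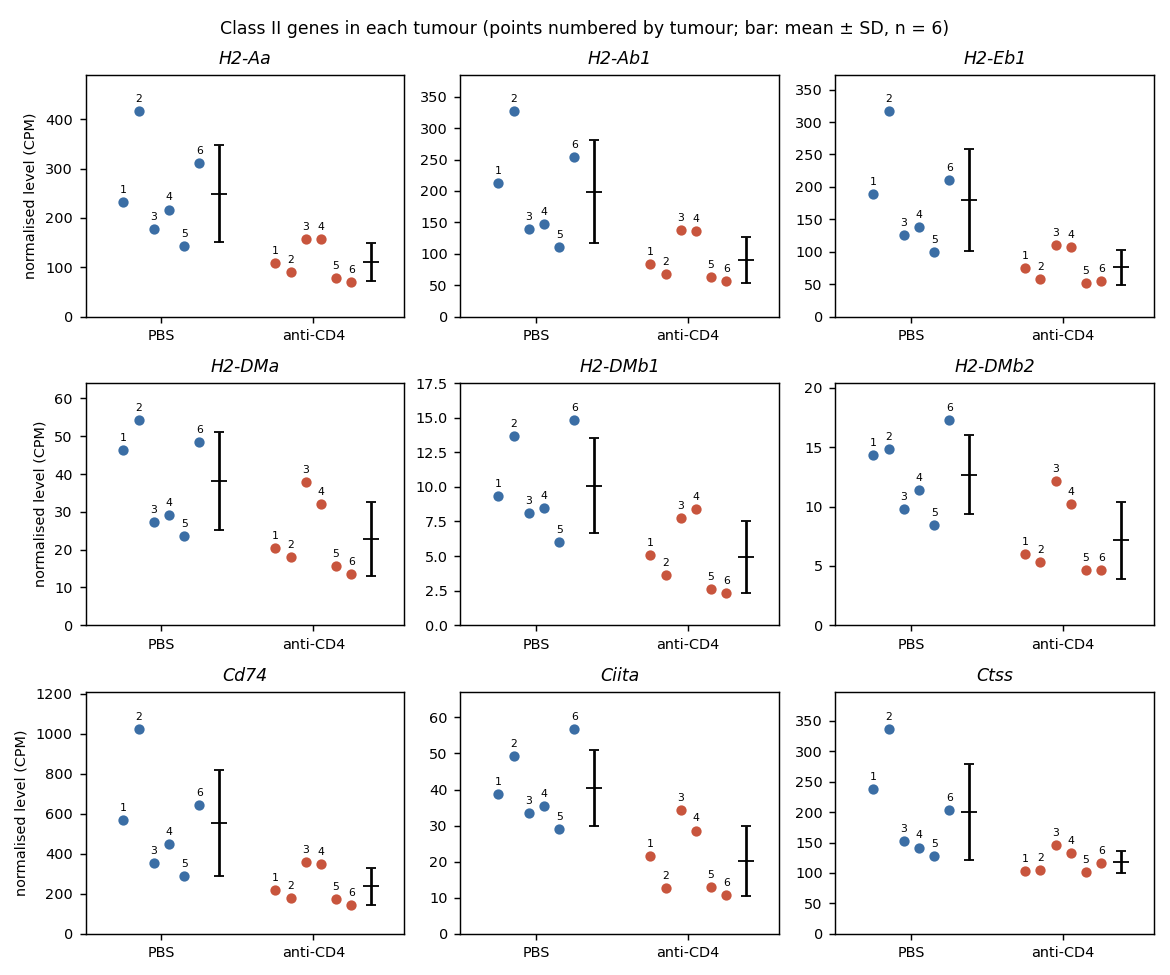
Normalised level (CPM, linear axis from 0) of each measured class II gene in the 6 PBS (blue) and 6 anti-CD4 (red) tumours, numbered by tumour, with mean ± SD beside each group. In all 9 panels anti-CD4 1, 2, 5 and 6 lie below every PBS tumour, while anti-CD4 3 and 4 lie near PBS 3, 4 and 5.

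In all 9 members, anti-CD4 1, 2, 5 and 6 lay below every PBS tumour, which held for 4.5% of all tested genes. Anti-CD4 3 did so in none of them, and anti-CD4 4 only in Ciita (28.6 CPM, with the lowest PBS tumour at 28.9 CPM). H2-Ab1 was at 137 and 136 CPM in anti-CD4 3 and 4, against 56.03 to 83.7 CPM in the other 4 and 110 to 326 CPM in PBS. Without both tumours, 8 of the 9 members were called lower (edgeR, background 3.86%), with -1.52 as the median log2 fold change, and Ctss did not pass (-0.91, SE 0.26, adjusted p = 0.0736). H2-DMb2 then fell by 1.30 (SE 0.19, adjusted p = 0.00442), Ciita by 1.49 (SE 0.24, adjusted p = 0.0101), and Cd74 by 1.64 (SE 0.35, adjusted p = 0.0286). These tumours were left out because earlier results of the same data had set them apart by immune genes, so a stronger difference follows in part from that choice. Ptprc, the pan-leukocyte gene, was at 112 and 120 CPM in anti-CD4 3 and 4 and at 57.8 to 68.3 CPM in the other 4, and Itgax, the CD11c gene, at 9.76 and 15.1 CPM against 5.44 to 7.32 CPM. Their part in the result was not tested. Cd4 did not set them apart together, at 0.618 and 2.13 CPM against 1.13 to 1.44 CPM in the other 4.

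The calls on H2-Eb1 and H2-Aa changed with the tumour left out and with the tool. In edgeR they were lost without PBS 3 or PBS 4, although the log2 fold changes were then larger in size. H2-Eb1 was at -1.33 and -1.30, against -1.24 with all tumours, and H2-Aa at -1.25 and -1.21, against -1.17. Without PBS 2 or 6 or anti-CD4 2, 5 or 6, where the calls were lost too, both log2 fold changes were smaller. Why the calls were lost was not tested. No member was called by edgeR without PBS 2, 3, 4 or 6 (backgrounds 0.656%, 0.522%, 1.61% and 0.36%) or without anti-CD4 2, 5 or 6 (0.182%, 0.171% and 0.199%), with 8 or 9 members at an unadjusted p under 0.05 in each. The count was 1 without anti-CD4 4 (1.98%) and 4 without anti-CD4 3 (2.03%). It stayed at 2 without PBS 1 (8.18%), PBS 5 (0.847%) or anti-CD4 1 (6.37%). DESeq2 and limma voom with sample weights each called 8 of 9 (backgrounds 6.57% and 17.7%), with H2-DMa the exception in both. With each library's log2 total as covariate in edgeR 0 were called (background 0.0279%), 5 had an unadjusted p under 0.05, and the median was -0.85. With the replicate number as a block in edgeR 0 were called (background 0.078%) and 8 had an unadjusted p under 0.05.

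**Figure D3:**
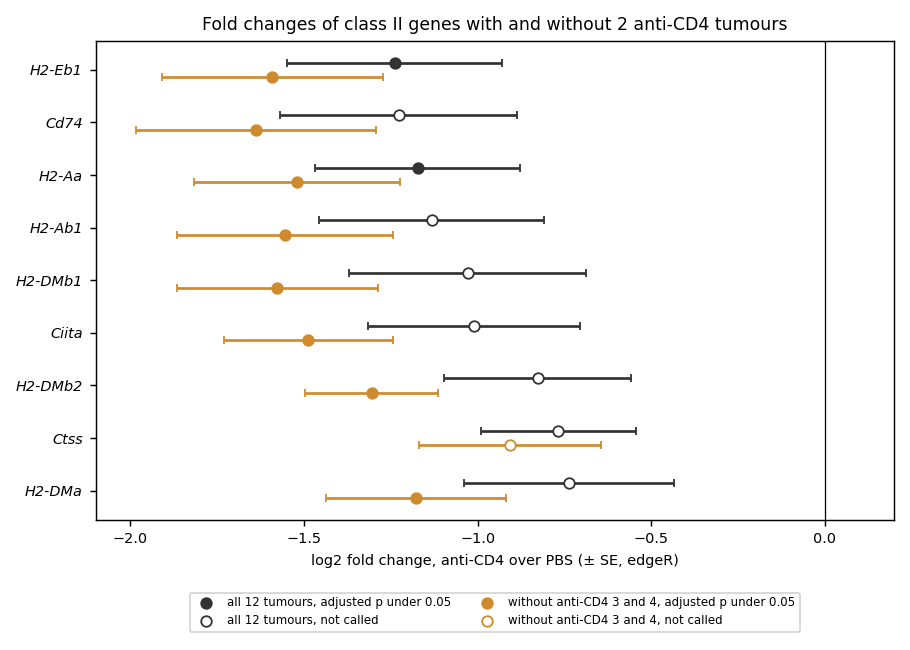
Log2 fold change (anti-CD4 over PBS, ± SE, edgeR) of each class II gene with all 12 tumours (black) and without anti-CD4 3 and 4 (orange), filled where the adjusted p is under 0.05. H2-Eb1 and H2-Aa are filled with all tumours, and all but Ctss without the 2 tumours.

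The remaining genes of the pathway, taken from 5 lists with 29 tested genes, showed 1 lower call and 1 higher call (background 2.33% and 2.95%, or 5.28% in either direction). None of the 7 factors that bind class II promoters together passed (median log2 fold change -0.003). Rfx5, a DNA-binding subunit of RFX, averaged 33.0 ± 2.27 CPM with PBS against 30.1 ± 1.86 CPM after anti-CD4 (SD, n = 6 each), a difference of -0.13 (SE 0.06, adjusted p = 0.159). Nfyb and Nfyc, subunits of NF-Y, had log2 fold changes of 0.09 and 0.15, and Creb1 one of 0.08, with adjusted p of 0.319, 0.192 and 0.209 in edgeR. The log2 fold changes of all 7 lay between -0.13 and 0.15, against -1.01 for Ciita, and that difference was not tested.

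None of the 8 genes of interferon gamma input passed. Ifng, the cytokine gene, was at 0.0871, 0.38 and 0.734 CPM with PBS against 0.017, 0.0645 and 0.318 CPM in anti-CD4 tumours, lowest, median and highest, with a log2 difference of -1.71 (SE 0.62) and an adjusted p = 0.099 in edgeR. Anti-CD4 3 and 4, at 0.269 and 0.318 CPM, lay within the PBS range and well above the 0.017 to 0.0864 CPM of the other 4. Jak1, the receptor kinase (0.19, adjusted p = 0.0756), Socs1, a feedback inhibitor (-0.34, adjusted p = 0.125), and Ifngr1, a receptor chain (-0.17, adjusted p = 0.246), did not pass. Irf1, a transcription factor of the response named after its values were seen, reached 109 CPM in anti-CD4 3. This lay above every PBS tumour (at most 99.6 CPM), while 3 PBS tumours or more lay above that tumour in each class II gene.

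The other class II genes were low. H2-Ob and H2-Oa, which encode the DM inhibitor H2-DO of B cells, averaged 1.67 ± 0.465 and 0.616 ± 0.258 CPM with PBS against 0.975 ± 0.330 and 0.4217 ± 0.1368 CPM after anti-CD4 (SD, n = 6 each). Their log2 fold changes of -0.78 and -0.55 did not pass in edgeR (adjusted p = 0.0758 and 0.267). H2-Eb2 was too low to be tested, at 0.239 CPM or less in the mean of either group. Of 6 endosomal proteases, 0 passed: Ctsl (0.18), Sppl2a, which clears the last invariant chain fragment (0.10), Ctsz (-0.14) and Lgmn (-0.20) had adjusted p of 0.313 to 0.410 in edgeR.

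The 2 calls among the 29 tested pathway genes are near the share called over all tested genes (5.28%), so their number is no result about the pathway. Both lay in the list of class II turnover and invariant chain partners, with 5 tested genes. Il10ra, the receptor chain for interleukin 10, fell by 0.75 on the log2 scale (SE 0.17, adjusted p = 0.0350 in edgeR), with means of 39.1 ± 7.68 and 23.3 ± 6.00 CPM in 6 tumours each (SD). Its highest anti-CD4 values, 31.6 and 29.7 CPM, were again those of tumours 3 and 4. Cd44, a surface receptor that signals with the invariant chain, rose from 338 ± 19.9 to 395 ± 29.2 CPM (0.22, SE 0.06, edgeR adjusted p = 0.0430). The call on Il10ra was lost without PBS 2 or 6 or anti-CD4 2, 5 or 6 (adjusted p = 0.0559 to 0.0889). That on Cd44 was lost without PBS 2, 3, 4, 5 or 6 or anti-CD4 2, 4, 5 or 6 (adjusted p = 0.0581 to 0.112).

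Markers of cells that express class II, and of other cells in the tumours, differed in how they moved. Over all tested genes, 2.33% were called lower and 2.95% higher. All 7 conventional dendritic cell markers had negative log2 fold changes (median -0.69), 2 of the 7 passed, namely Flt3 and Zbtb46, and their summed level was 36.4 to 65.4 CPM with PBS against 22.5 to 42.2 CPM in anti-CD4 tumours. Of 5 mature dendritic cell markers 4 fell, Ccr7, Ccl22, Il12b and Cd40 (summed level 123 to 153 against 97.5 to 111 CPM). Fscn1, which did not pass (-0.13), made up most of that sum (means of 101 of 136 CPM in PBS tumours). The sum therefore mainly follows Fscn1, while Ccr7, Ccl22 and Il12b had log2 fold changes of -1.79, -1.67 and -1.81. None of 8 macrophage markers passed (median -0.22; 1437 to 2307 against 1436 to 1675 CPM). Of 5 tested B cell markers 1 fell, Cd22, and the list was low (8.35 to 11.995 against 6.10 to 8.61 CPM). Of 5 leukocyte markers 1 fell, Laptm5 (356 to 625 against 313 to 438 CPM). Of 5 T cell markers 2 fell, Cd2 and Cd5 (13.5 to 30.998 against 2.62 to 16.3 CPM). Of 5 plasmacytoid dendritic cell markers 3 fell, Siglech, Ccr9 and Spib, and 1, Tcf4, rose, and Tcf4 made up most of the summed level (means of 370 of 414 CPM in PBS tumours). The part of these cells in the class II values was not tested. Mesothelial and fibroblast lists had 0 lower genes, with Pdpn, Lum and Pdgfra higher.

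The class II difference depended on the marker it was set against. Relative to Ptprc, the pan-leukocyte gene CD45, the 9 members differed by a median log2 ratio of -0.55 (range -0.62 to -0.12), whereas without a reference the same measure was -1.12. Relative to the 7 conventional dendritic cell markers it was -0.40, and relative to the 8 macrophage markers -0.99. Relative to Itgax, the CD11c gene of dendritic cells and some macrophages, it was -0.19 (range -0.27 to 0.23), with 6 of 9 members negative. For H2-Ab1 the mean log2 ratio to Itgax was 3.64 ± 0.13 in PBS and 3.45 ± 0.22 in anti-CD4 tumours, and for Ciita 1.41 ± 0.33 and 1.23 ± 0.37 (SD, n = 6 each). Itgax had itself a log2 difference of -0.95 (SE 0.33) and an adjusted p = 0.0981 in edgeR. H2-DMa and Ctss had higher mean ratios to Itgax in anti-CD4 tumours, by 0.16 and 0.23, with SD of 0.22 to 0.43 within groups.

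**Figure D4:**
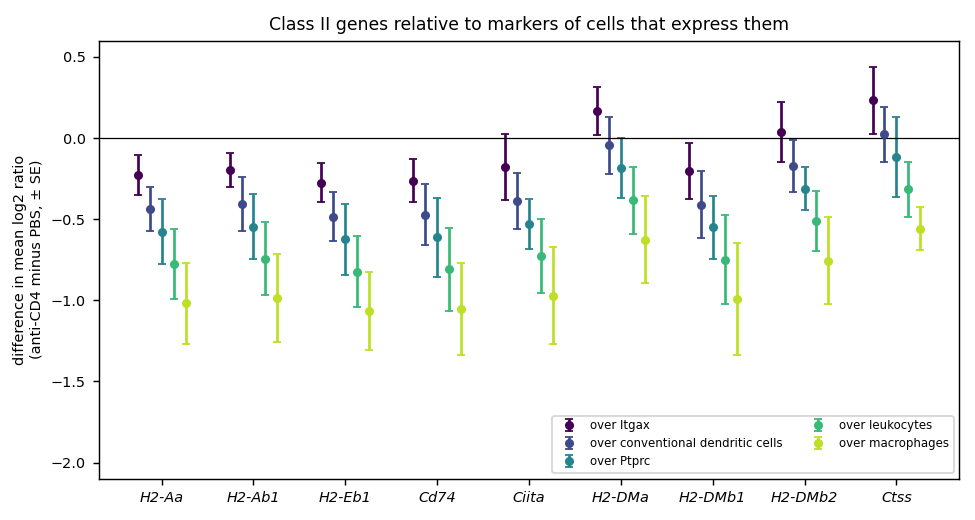
Difference in the mean log2 ratio of each class II gene to a marker or to the summed level of a marker list (anti-CD4 minus PBS, ± SE of the difference, n = 6 each). Of the 5 references drawn, the difference is highest over Itgax and lowest over the macrophage list. A change of reference shifts all 9 genes by the same amount, so this order describes the markers and not the single genes.

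Within groups, class II levels correlated more closely with Itgax and Ifng than with the macrophage gene Adgre1. After removal of group means, the mean log2 level of H2-Aa, H2-Ab1, H2-Eb1 and Cd74 correlated across 12 tumours at r = 0.94 with Itgax, 0.94 with Ifng and 0.75 with Ptprc, against 0.63 with Adgre1 and 0.60 with Flt3. Among the 5 members outside that mean, r was 0.96 for H2-DMa, 0.92 for H2-DMb1, 0.91 for H2-DMb2, 0.88 for Ciita and 0.85 for Ctss. Ifng was near the floor, as low as 0.017 CPM in anti-CD4 tumours, so its log2 deviations depend on few counts. Of other listed genes, Spib was at 0.93, Il10ra at 0.91 and Cd3e at 0.81. The dendritic cell genes Xcr1 and Clec9a, at 0.49 and 0.46, lay below Adgre1, while Batf3 and Cd209a were at 0.78 and 0.74. Macrophage markers ran from 0.69 for Lyz2 to -0.13 for Cd68, so single genes do not stand for a cell type here. Anti-CD4 3 and 4, which are high for their group in class II, Itgax and Ifng, are included in these correlations. These values describe 12 tumours from the same count table, in which the points share library and depth, and they carry no p.

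**Figure D5:**
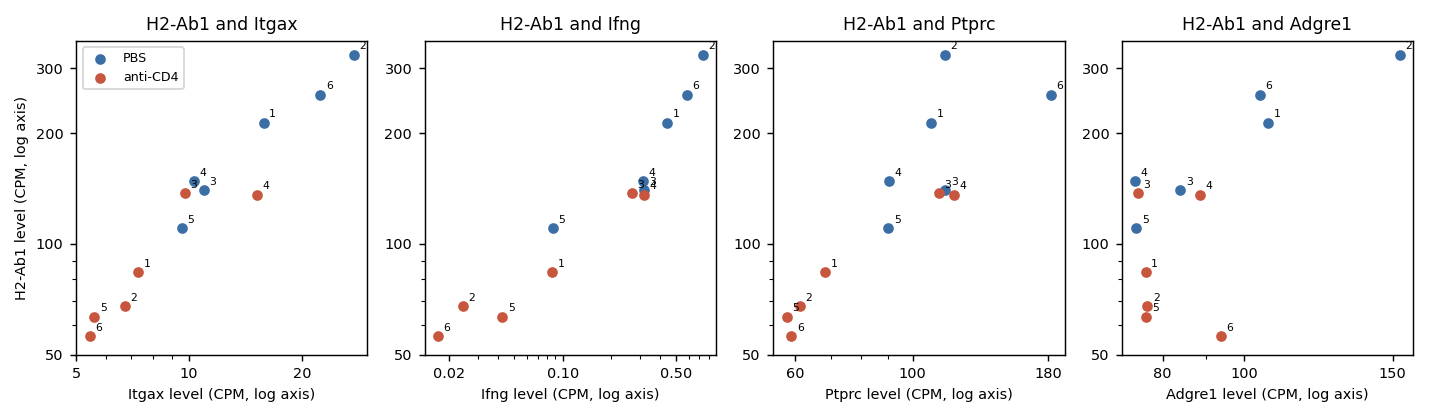
Level of H2-Ab1 against Itgax, Ifng, Ptprc and Adgre1 in each tumour (CPM, both axes log; blue PBS, red anti-CD4, numbered by tumour). Itgax and Ifng rise with H2-Ab1 through both groups, with anti-CD4 3 and 4 inside the PBS range of these genes. Adgre1 is between 74.7 and 93.7 CPM in all anti-CD4 tumours.

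The genes whose within-group pattern was most like that of the class II profile, among 13588 considered outside the lists, included lysosomal and myeloid genes. Plbd1, a phospholipase-like protein, had r = 0.97, Fcrlb, an Fc receptor-like gene, 0.97, Csf2ra, the receptor for GM-CSF, 0.95, and Slc31a2, a copper transporter, 0.95. Nrros, a partner of latent TGF-beta in myeloid cells, Tmem50b, Gm2a, a lysosomal lipid carrier, and Ctsh, an aminopeptidase cathepsin, followed at 0.94, 0.94, 0.94 and 0.93. All are descriptions over 12 tumours, and the top of a ranking of this many genes is high by selection. Of these 8, Fcrlb (log2 fold change -1.14, SE 0.27) and Csf2ra (-0.49, SE 0.12) fell, with edgeR adjusted p of 0.0350 and 0.0397. Tmem50b was level between the groups (0.02, adjusted p = 0.917), so it followed class II within groups and not between them.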

How the data were processed

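Total RNA of 12 tumours, after a depletion step that names globin RNA, was sequenced in read pairs, per the labels' protocols. Tools named by the submitters' processing notes are bcl2fastq 2.20.0.422 and kallisto, with GRCm38.p6 as build. Values are the authors' estimated counts for each gene name, with 35.7% to 37.9% per tumour not whole. Annotation release and strand setting were not given in the sources used here.

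Counts were rounded, filtered by filterByExpr, scaled by TMM and tested with edgeR 4.0.16 (R 4.3.3), using the robust quasi-likelihood F test without covariates and Benjamini-Hochberg adjustment over all 17940 tested genes. Genes were called at an adjusted p under 0.05. SE is the fold change over the square root of F. CPM are counts per effective library size (TMM), and log2 CPM used a prior count of 2. Single ratios were compared by exact two-sided permutation over 924 assignments. Coordinates and exon lengths are from GENCODE M21 (GRCm38). Alternatives used DESeq2 1.42.0 and limma 3.58.1. The fit was tested on simulated data.

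The members, the lists and the exclusion of anti-CD4 3 and 4 were chosen with earlier results of these data known. The named genes were the members, Cd4, Ptprc, Itgax, Adgre1, the called and up to 4 lowest-p genes of each pathway list, and the 8 genes most similar to the class II profile (mean log2 CPM of 0 or more, no model numbers, pseudogenes or receptor segments, and, added after seeing it, no name turned into a date). Irf1, H2-Ea-ps, H2-Eb2, Brd2, Dexi and the markers named were added after their values were seen. March1 and March8 were not analysed here, and some items are not reported here. Labels do not link each tumour to its own animal, so p-values measure the spread between these samples. Same-group tumours were no copies, with chi-square per degree of freedom of at least 8.46.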

Additional observations from a re-analysis of the deposited data

How the results depend on the processing

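All 196 values of the 9 members under the alternatives kept a negative sign (log2 fold change -1.64 to -0.55), while calls varied. Called members numbered 2 with RLE scaling and with a stricter filter. They numbered 0 with upper quartile scaling, 0 with no filter, 8 with DESeq2, 8 with voom, 0 with the library total as covariate, 8 without both anti-CD4 3 and 4, and 0 to 4 with 1 tumour left out. Called pathway genes, in either direction, numbered 2 of 29 in the main analysis and 1, 1, 5, 9, 0, 7 and 0 to 4 in the same order. Lower calls alone made up 6.57% of all genes with DESeq2, 17.7% with voom and 3.86% without both tumours. With DESeq2 and voom many genes were also called higher, so the pathway counts there are not read as a result about the pathway. Over all genes, 418 were lower and 529 higher. Lower genes numbered 251 with no filter, 1180 with DESeq2, 3169 with voom, 5 with the covariate, 705 without both tumours and 31 to 1480 with 1 tumour left out. Higher genes numbered 179 with upper quartile scaling, 272 with no filter, 1345 with DESeq2, 2809 with voom, 0 with the covariate and 29 to 1160 with 1 tumour left out. Where 0 members were called, 9 had an unadjusted p under 0.05 with upper quartile scaling and with no filter, and 5 with the covariate. The sign of Ctsl (-0.029) and of Cd9 (-0.052) turned with the covariate. The causes were not tested. The median log2 ratio of members to Ptprc was -0.62 to -0.41 with 1 tumour left out. It was -0.74 over B cell, -0.76 over mature dendritic cell (mostly Fscn1), -0.74 over leukocyte and -0.99 over macrophage markers. Over plasmacytoid (mostly Tcf4), mesothelial and fibroblast markers it was -1.31, -1.16 and -1.44, and it turned to 0.41 over T cell markers. With the replicate number as a block, 0 members (8 at an unadjusted p under 0.05), 0 pathway genes, 14 lower and 19 higher genes were called. Same-numbered tumours deviated together at r of -0.41 to 0.23, so no pattern shared by number was seen. These few values cannot settle whether the numbers stand for a pairing. No member's groups met the criterion for a single outlying tumour among 18 groups screened.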

Other observations

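A pair of rows in the count table carries the name Mar-01, a gene symbol turned into a date. The symbols that become this date are March1 and Marc1, and the table does not tell which row is which. March1 encodes a ubiquitin ligase that removes class II molecules from the cell surface. The more abundant row, at 15.2 ± 5.73 CPM with PBS against 10.9 ± 2.81 CPM after anti-CD4 (SD, n = 6 each), followed the class II profile within groups at r = 0.94 over 12 tumours. Its log2 fold change of -0.49 (SE 0.23) did not pass in edgeR (adjusted p = 0.192). The other row was at 0.287 and 0.238 CPM in the mean of the groups.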
